A study of Mus musculus with 4 samples.

Results

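Transcripts of the SREBP and ChREBP lipid regulators were read in mouse liver after adenoviral expression of lipin 1beta. The 8 genes chosen for this set by name were Srebf1, Srebf2, Scap, Insig1, Insig2, Mlxipl, Thrsp and Stard4. Every probe set whose only gene symbol was that of a member was used, which gave 12 probe sets for 7 of the 8 genes, out of 22626 probe sets for 12393 named genes. No probe set of the platform table carried Insig1 alone, so Insig1 was not analysed here. All 12 member probe sets passed the filter on low mean signal and were tested.

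The control group was 2 liver samples of adult male C57BL6 mice given an adenovirus for green fluorescent protein (GFP), and the compared group was 2 liver samples of such mice given an adenovirus for mouse lipin 1beta (lipin). Both groups had therefore received a virus, and both were killed on day 6 after the injection. The labels name no animals, so whether replicates are separate mice is not known, and every p-value covers only the scatter among these samples, which may be technical. The label of lipin replicate 2 names polyA RNA and those of the other 3 samples total RNA.

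SREBPs are made as inactive precursors in the membrane of the endoplasmic reticulum. Scap escorts them to the Golgi, where proteases release the part that enters the nucleus, and the Insig proteins hold Scap back when sterols are plentiful. Srebf1 encodes the forms that mainly drive fatty acid synthesis, Srebf2 the form that mainly drives cholesterol synthesis and uptake, and Mlxipl encodes ChREBP, which turns on glycolytic and lipogenic genes when glucose is abundant. Thrsp, or Spot 14, is a lipogenic protein induced by thyroid hormone and carbohydrate, and Stard4 is a sterol transfer protein whose gene is a target of SREBP-2. Lipin 1 is a phosphatidate phosphatase and nuclear coregulator, and Lpin1 is itself an SREBP target.

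Across the members the groups separated in 4 genes. Srebf1, Mlxipl and both probe sets of Thrsp read higher in both arrays labelled lipin than in both GFP arrays, by 1.94-fold to 2.90-fold. All 3 probe sets of Insig2 read lower, by 1.87-fold to 2.64-fold. Srebf2, Scap and Stard4 overlapped between the groups. Of the 12 member probe sets, 4 thus lay above and 3 below, where 17.1% and 15.9% of all tested probe sets did. No member passed the limma test, which pools the spread over probe sets, after Benjamini-Hochberg adjustment over the 13576 probe sets tested (adjusted p under 0.05), where 0% of probe sets passed in either direction.

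The upstream sequences of the 4 genes whose groups separated are shown to set their known kinds of control beside the values. They are the 250 bases before a start in RefSeq (GRCm38.p6), written 5′ to 3′ on the gene's strand. Capitals mark matches on either strand to the sterol regulatory element core TCACNCCAC, the E-box CACGTG, the CCAAT box bound by NF-Y, and GGTTACT, a half-site of the LXR elements known in the Srebf1 promoter, which was added after the Srebf1 sequence had been read. For Srebf1 and Insig2, which have 3 starts each in the table, the start with the most matches is shown. For Srebf1 this choice rests on GGTTACT, without which the most upstream start, with 1 CCAAT box, would tie. The middle Srebf1 start and the other Insig2 starts held 0 matches.
Srebf1, most downstream start (chr11:60210472-60210721, minus strand): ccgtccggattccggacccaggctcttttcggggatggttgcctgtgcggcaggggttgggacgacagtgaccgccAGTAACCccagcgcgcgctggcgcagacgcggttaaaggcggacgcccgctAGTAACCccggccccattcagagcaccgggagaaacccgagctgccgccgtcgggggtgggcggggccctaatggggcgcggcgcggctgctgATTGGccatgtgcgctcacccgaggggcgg
Mlxipl, upstream start (chr5:135089640-135089889, plus strand): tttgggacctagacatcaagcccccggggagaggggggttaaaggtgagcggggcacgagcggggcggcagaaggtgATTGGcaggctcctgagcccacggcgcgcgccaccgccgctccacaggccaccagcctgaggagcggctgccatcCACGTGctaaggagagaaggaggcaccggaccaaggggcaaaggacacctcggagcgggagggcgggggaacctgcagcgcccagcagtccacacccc
Mlxipl, downstream start (chr5:135106641-135106890, plus strand): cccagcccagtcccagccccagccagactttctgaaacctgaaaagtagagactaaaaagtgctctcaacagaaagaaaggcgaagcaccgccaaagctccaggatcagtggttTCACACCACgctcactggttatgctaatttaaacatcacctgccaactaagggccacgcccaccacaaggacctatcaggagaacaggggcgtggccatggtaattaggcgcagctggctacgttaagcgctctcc
Thrsp (chr7:97417551-97417800, minus strand): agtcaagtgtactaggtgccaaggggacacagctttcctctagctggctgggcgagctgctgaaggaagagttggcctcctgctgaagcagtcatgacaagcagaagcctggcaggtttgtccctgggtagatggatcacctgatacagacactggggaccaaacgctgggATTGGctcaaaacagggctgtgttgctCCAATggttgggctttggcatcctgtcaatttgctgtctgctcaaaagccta
Insig2, most upstream start (chr1:121332590-121332839, minus strand): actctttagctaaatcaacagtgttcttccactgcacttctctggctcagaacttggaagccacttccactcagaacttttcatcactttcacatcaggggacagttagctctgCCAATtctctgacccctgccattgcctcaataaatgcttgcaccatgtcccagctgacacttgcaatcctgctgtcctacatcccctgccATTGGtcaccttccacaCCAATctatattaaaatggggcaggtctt

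Of these 5 sequences, that of Srebf1 holds GGTTACT on its other strand at 2 places, from base 174 to base 168 and from base 123 to base 117 before the start. It also holds an inverted CCAAT box at bases 30 to 26 before the start. GGTTACT was matched in 1.88% of the 32851 promoter sequences of this length. Since this motif was added after the Srebf1 sequence had been read, its share supports nothing further. The Mlxipl upstream start has an E-box at bases 98 to 93 before the start and an inverted CCAAT box at bases 173 to 169, and its downstream start has TCACACCAC, a match to the sterol element core, at bases 136 to 128. The E-box occurs in 6.02% of all such sequences and the sterol element core in 1.05%. Thrsp carries a CCAAT box in each orientation, and the most upstream Insig2 start carries 3 within its 250 bases. The CCAAT box occurs in 33.8% of all such sequences, so a match to it sets few genes apart. Of the 13 member sequences searched, for 7 genes including Insig1, the sterol element core was found in 1, the E-box in 3, the CCAAT box in 7 and the LXR half-site in 1. No match overlapped another. A match describes letters only, and the probe sets do not tell which start a transcript came from.

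Values are MAS5 signals, linear intensities in arbitrary units with 1 for each probe set and array. The arrays had the same 2% trimmed mean of 1501, and their median signals ran from 582 to 748 arbitrary units. GFP replicate 2 correlated least with the other arrays, at a mean of 0.731 against 0.781 to 0.793, and its beta-actin signal was the most skewed to the 3′ end, as in degraded RNA, with a 3′ over 5′ ratio of 4.22 against 1.77 to 2.86. The brighter Lpin1 probe set gave 7082 and 4632 with GFP against 3854 and 11087 with lipin. The dimmer gave 2730 and 1430 against 2260 and 6719. Lipin replicate 1 exceeded both controls in neither, so each direction given for lipin rests on the labels. How the probes sit with respect to the vector's cDNA is unknown here. The hepatocyte marker Alb read from 571407 to 1069100, whereas the adipocyte markers Adipoq and Lep had a mean log2 signal under the filter. Single arrays were higher, with Lep at 1111.3 in GFP replicate 2 and Adipoq at 708.5 in lipin replicate 2. The precision of every value below is limited by the number of arrays, and with 2 against 2 an exact test of 1 probe set cannot go below p = 0.333, two-sided.

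**Figure D1:**
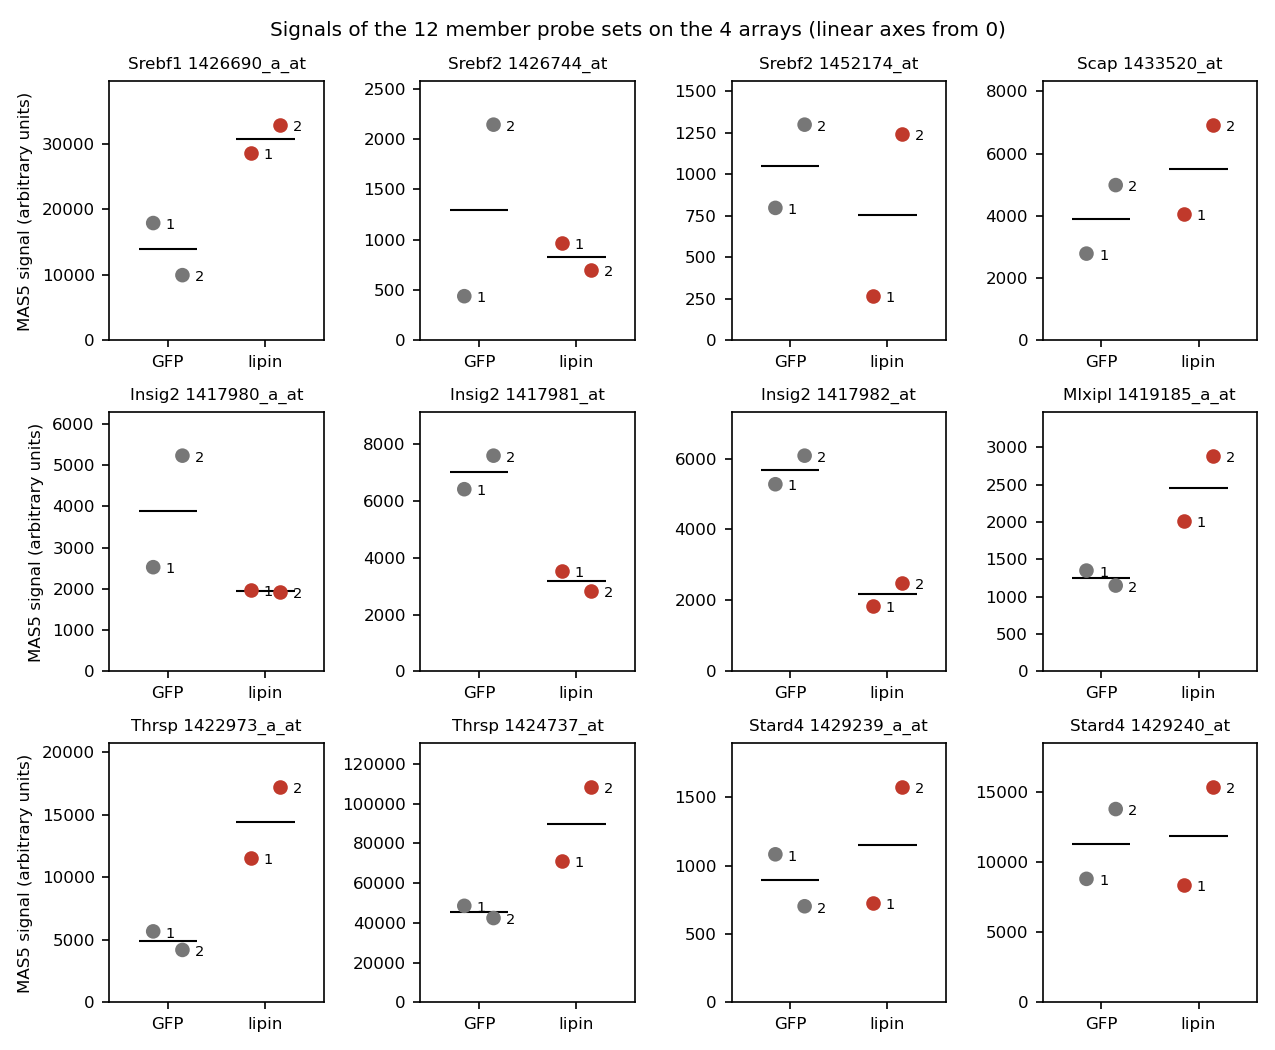
MAS5 signal in arbitrary units, on linear axes from 0, of each of the 12 member probe sets in the GFP arrays (grey) and the arrays labelled lipin (red). Points are single arrays with their replicate number and lines are group means (n = 2). The red points of Srebf1, Mlxipl and Thrsp lie above both grey points and those of Insig2 below, while those of Srebf2, Scap and Stard4 overlap with the grey.

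Insig2, the retention protein that keeps Scap and its SREBP cargo in the endoplasmic reticulum, was read by 3 probe sets, which share 1 target gene and are not replicates of the condition. By probe set 1417982_at, GFP replicate 1 read 5276 and replicate 2 read 6081, while the lipin arrays read 1837 and 2499. Every GFP signal was between 2.11 and 3.31 times every signal of the lipin arrays, whereas the GFP arrays differed by 1.15 times and the lipin arrays by 1.36 times. The mean was 5678 ± 570 with GFP against 2168 ± 468 with lipin (SD, n = 2 each). The log2 difference was -1.40 ± 0.39 (SE), with a 95% interval from -2.24 to -0.57 and a limma adjusted p of 0.962. By unadjusted p it stood at place 32 of 13576.

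The second Insig2 probe set, 1417981_at, read 6414 and 7595 with GFP but 3540 and 2830 with lipin. The groups were again apart, by 1.81 to 2.68 times between arrays. The log2 difference was -1.14 ± 0.36 (95% interval -1.91 to -0.37, limma adjusted p = 0.962). The probe set 1417980_a_at, of a type designed to read several transcripts of a gene, gave 2528 and 5232 with GFP but 1974 and 1920 with lipin. Here the lipin arrays lay together and just below GFP replicate 1, and the distance came mostly from GFP replicate 2. Its log2 difference of -0.90 ± 0.46 (limma adjusted p = 0.962) was -0.38 without GFP replicate 2. The other 2 Insig2 probe sets stood at -1.02 and -1.30 without that array, and at -0.98 and -1.62 without lipin replicate 2, the array labelled polyA RNA.

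Scap, the escort protein and sterol sensor, was read by 1 probe set. Replicate 1 read 2790 with GFP and 4063 with lipin, and replicate 2 read 4992 with GFP and 6934 with lipin. GFP replicate 2 exceeded lipin replicate 1, so the groups overlapped. The log2 difference of 0.51 ± 0.41 had a 95% interval from -0.38 to 1.39 (limma adjusted p = 0.962), which allows up to 2.62-fold higher and 1.30-fold lower. Leaving out GFP replicate 2 gave 0.93, and leaving out GFP replicate 1 gave 0.089.

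Srebf1, the precursor gene of the lipogenic SREBP-1 forms, read 17894 in GFP replicate 1, 9950 in GFP replicate 2 and, with lipin, 28563 in replicate 1 and 32896 in replicate 2. Both lipin arrays were high and close together, within 1.15 times of each other, while the GFP arrays differed by 1.80 times. Each lipin signal was 1.60 to 3.31 times each GFP signal. The fold change was 2.30, with a 95% interval from 1.37 to 3.85, and the log2 difference of 1.20 ± 0.35 did not pass (limma adjusted p = 0.962). GFP replicate 2 held the lowest Srebf1 signal, and without it the log2 difference was 0.78, against 1.62 without GFP replicate 1. The part of that array's RNA quality in the difference was not tested. The probe set is also of the kind that can read several transcripts, so the SREBP-1a and SREBP-1c forms, which start at different exons, cannot be told apart.

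Srebf2, the SREBP of the cholesterol pathway, was dim and scattered. By probe set 1426744_at the controls read 439 and 2144 and the lipin arrays 967 and 698. Both lipin values lay inside the GFP range, whose ends differed by 4.88 times. The log2 difference was -0.24 ± 0.83, with an interval from -2.02 to 1.54 (limma adjusted p = 0.980). The probe set 1452174_at read 799 and 1300 with GFP against 268 and 1245 with lipin, which differ by -0.82 ± 0.90 on the log2 scale with an interval from -2.75 to 1.11 (limma adjusted p = 0.962). Its low value was that of lipin replicate 1, without which the difference was 0.29. The first probe set stood at 0.90 without GFP replicate 2. The intervals allow 2.91-fold higher to 4.06-fold lower for the first and 2.15-fold higher to 6.70-fold lower for the second, so a change of Srebf2 within these bounds was not detectable.

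Mlxipl, which encodes the glucose-responsive factor ChREBP, gave control signals of 1350 and 1149, against 2016 and 2889 with lipin. The GFP arrays were within 1.18 times of each other, and each lipin signal was 1.49 to 2.51 times each GFP signal. Group means were 1250 ± 142 and 2452 ± 617 (SD, n = 2 each). The log2 difference was 0.95 ± 0.50, and its 95% interval ran from -0.12 to 2.03 and so included 0 (limma adjusted p = 0.962). With each array left out in turn it ran from 0.69 to 1.21, and since the groups did not overlap its sign could not turn.

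Thrsp, the lipogenic protein Spot 14, gave the smallest p of the members. Its probe set 1422973_a_at read 5673 and 4192 with GFP, and 11573 (replicate 1) and 17231 (replicate 2) with lipin. The lowest lipin signal was 2.04 times the highest GFP signal, more than the 1.35 and 1.49 times by which arrays of a group differed. The log2 difference was 1.53 ± 0.35, with an interval from 0.80 to 2.27, place 8 of 13576 by unadjusted p, and a limma adjusted p of 0.804. The probe set 1424737_at read 48613 and 42455 with GFP against 71384 and 108589 with lipin, higher by 0.95 ± 0.37 on the log2 scale (interval 0.16 to 1.75, limma adjusted p = 0.962). In both probe sets lipin replicate 2 was the highest array, and without it the differences were 1.25 and 0.65.

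Stard4, the sterol carrier downstream of SREBP-2, differed more within groups than between them. Its brighter probe set, 1429240_at, read 8816 and 13796 with GFP, and 8387 and 15395 with lipin. The lipin arrays held both the lowest and the highest value. The log2 difference was 0.043 ± 0.37 (limma adjusted p = 0.993), and its interval from -0.75 to 0.83 allows a fold change of 0.595 to 1.78. The other probe set read 1082 and 702 with GFP, against 727 and 1576 with lipin, and its groups differed by 0.30 ± 0.72 on the log2 scale (limma adjusted p = 0.977). Both differences turned below 0 without lipin replicate 2, at -0.40 and -0.26.

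**Figure D2:**
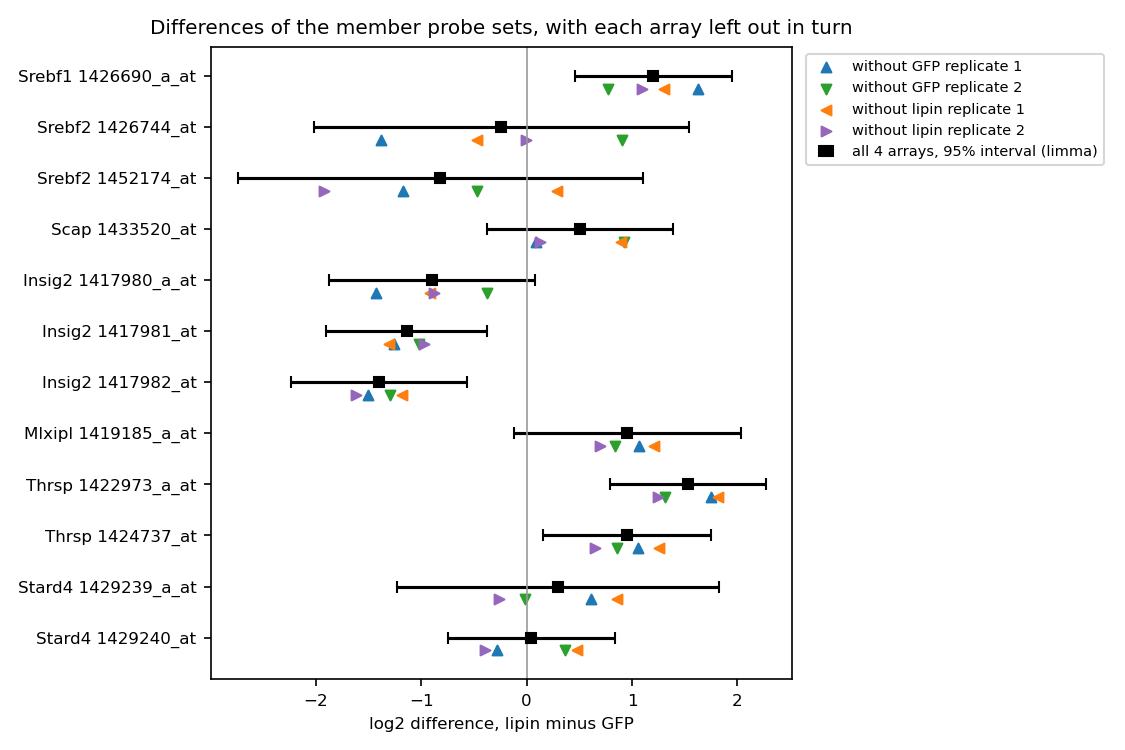
Log2 difference, lipin minus GFP, of each of the 12 member probe sets (black squares, with limma's 95% interval) and the same with each array left out in turn (coloured triangles). The triangles of Srebf1, Mlxipl, Thrsp and Insig2 stay on the side of their square. Their groups do not overlap, so leaving out an array could not turn the sign, and this adds no support. Among the genes with overlapping groups, the triangles of Scap stay above 0 and those of Srebf2 and Stard4 fall on both sides of 0.

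Taking the 12 member probe sets as a list, both lipin arrays exceeded both controls in 4 and lay under both in 3. Over all 22626 probe sets the shares were 16.4% in each direction. Since 3 of the separated probe sets read Insig2 and 2 read Thrsp, they stand for 4 genes. At an unadjusted limma p under 0.05 there were 5 member probe sets, against 4.39% of all tested, 3 of them higher (2.47% of all) and 2 lower (1.92% of all). The median absolute log2 difference was 0.93 for the members and 0.48 for all tested probe sets, and the signed medians were 0.17 and 0.0038. The members were picked with earlier results of these data known, so these shares describe them and support nothing further.

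Markers of other liver cells were set beside the members, since less RNA per cell and fewer cells of a type cannot be told apart in whole liver. Each sum runs over every probe set of a list's genes on the array, tested or not. Hepatocyte markers, with 7 of 8 on the array, summed to 2439380 and 5040440 in the GFP arrays and to 3453530 and 4377710 in the lipin arrays, so these ranges overlapped. T and NK cell markers, with 6 of 7 on the array, summed to 3878 and 4577 in GFP and to 3423 and 2955 in lipin. Stellate cell markers, with 5 of 5 on the array, summed to 7712 and 10778 in GFP and to 6835 and 6834 in lipin. In these last lists the sums of the lipin arrays lay below those of both GFP arrays. No marker on the array was listed at 0, but several were dim, and 2 genes of each list were not tested. Cd3g read 81.2 and 41.4 in the GFP arrays and 42 in lipin replicate 1, all under the floor of 119.5. Gzma at 64.6 and Gzmb at 74.8 lay under it in lipin replicate 2. Insig2 also read lower in the lipin arrays. By the brightest probe set, both lipin arrays lay below in 2 of 6 T and NK genes and in 2 of 5 stellate genes. The share over all probe sets was 16.4%. Among the T and NK genes below is Cd8a, at 351 and 318 with lipin. Both signals were under the filter of 373, so it was tested through the GFP arrays only. In both the T and NK list and the stellate list 2 genes had a difference above 0, so the sums do not describe every marker. The part of these cells in the Insig2 difference was not tested. Kupffer cell and macrophage markers, with 7 of 7 on the array, summed to 44535 and 30702 in GFP and to 41062 and 28319 in lipin, and endothelial markers, with 5 of 5 on the array, to 16945 and 23444 against 17230 and 23187.

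The genes that act on or under these regulators were described by lists from textbook knowledge, with the brightest tested probe set for each gene. No gene of any list passed the limma test after adjustment. Over all 8493 tested genes, both lipin arrays exceeded both controls in 17.3% and lay under both in 16.0%, and the median log2 difference was 0.0015.

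Genes of SREBP processing and turnover showed no common direction. Of 10 tested, 1 had both lipin arrays over both controls and 2 had both under, with a median of 0.31, or -0.14 without GFP replicate 2. Fbxw7, the ubiquitin ligase subunit that marks nuclear SREBP for breakdown, read 2688 and 2415 with GFP against 1587 and 1164 with lipin (log2 difference -0.91 ± 0.49). Sec24c, a coat protein of the vesicles that carry Scap and SREBP, read 2747 and 1344 with GFP against 3220 and 3480 with lipin (log2 difference 0.80 ± 0.46), or 0.28 without GFP replicate 2. The coat protein Sec23a stood at -0.36 ± 0.36 and Vcp, the ATPase that pulls proteins from the endoplasmic reticulum for breakdown, at 0.48 ± 0.43, or -0.25 without GFP replicate 2. The limma adjusted p was 0.962 for each of these genes.

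Cholesterol synthesis enzymes, the main SREBP-2 targets, leaned to lower values beside the unsettled Srebf2. Of 17 tested, 5 had both lipin arrays under both controls and 3 had both over, and the median was -0.33. It was -0.80 without lipin replicate 2 and 0.0054 without lipin replicate 1. Hmgcs1, which makes HMG-CoA, read 54507 and 35024 with GFP against 12693 and 20741 with lipin. Cyp51 and Nsdhl, which act on lanosterol and its products, had log2 differences of -0.93 ± 0.39 and -0.85 ± 0.34 (limma adjusted p = 0.962 each), or -0.54 and -0.55 without lipin replicate 1. In all 3 of these enzymes lipin replicate 1 was the lowest array, as it was for the Srebf2 probe set 1452174_at and for the brighter Stard4 probe set. It was not the lowest for the other Srebf2 probe set or the dimmer Stard4 probe set. For the enzymes Mvk and Lss of the same list it was the highest.

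Among 9 tested genes of sterol uptake and handling, Lpin1 included, 3 had both lipin arrays above and 2 had both below. Their median was 0.091, and it turned to -0.11 without GFP replicate 2 and to -0.068 without lipin replicate 2. Lpin1, the gene that the vector carries, stood at 0.19 with overlapping groups. It is thus in neither count but does enter the median. Without Lpin1 the middle values of the list are -0.16 and 0.091, so the median would turn negative. Abcg5, a sterol exporter under LXR control, read 1148 and 1484 with GFP against 2782 and 4542 with lipin (log2 difference 1.45 ± 0.47) (limma adjusted p = 0.962). The lysosomal sterol proteins differed in sign, with Npc1 at 0.61 ± 0.46, or 0.21 without GFP replicate 2, and Npc2 at -0.59 ± 0.31. Abca1, which exports cholesterol to lipoproteins, stood at -0.16 ± 0.33 with overlapping groups.

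Fatty acid synthesis enzymes did not share a direction, although Srebf1 and Mlxipl read higher. Of 15 tested, 3 had both lipin arrays above and 5 had both below, and the median was 0.013. Fads2, a desaturase of polyunsaturated fatty acids, read 4158 and 3946 with GFP against 7639 and 9634 with lipin (log2 difference 1.08 ± 0.34). On the other side, Elovl5, an elongase, stood at -0.86 ± 0.36. Acacb, the acetyl-CoA carboxylase at mitochondria, read 2166 and 1242 with GFP against 155 and 932 with lipin (log2 difference -2.11 ± 0.92). Leaving out lipin replicate 1 gave -0.82, and leaving out lipin replicate 2 gave -3.40. Scd1, the stearoyl-CoA desaturase, read 57154 and 36090 with GFP against 51153 and 75088 with lipin, so its groups overlapped, at 0.45 ± 0.38, or 0.12 without GFP replicate 2. The limma adjusted p was 0.962 for all 4. Leaving out GFP replicate 2 put the list's median at -0.39, and leaving out GFP replicate 1 put it at 0.34.

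Glucose-responsive genes under ChREBP had more members above than below. Of 12 on the array, of which 11 were tested, 5 had both lipin arrays over both controls and 0 had both under. The median of those tested was 0.27, or -0.10 without GFP replicate 2. Among the 5 is Arrdc4, a relative of Txnip, at 358 and 91.2 with GFP against 898 and 712 with lipin. Both of its GFP signals were under the filter of 373, so it was tested through the lipin arrays only. Its part in the median of 0.27 therefore supports nothing, while the count of 5 covers genes on the array, tested or not. Mid1ip1, the close relative of Thrsp that activates acetyl-CoA carboxylase, read 4731 and 3808 with GFP against 6236 and 6186 with lipin (log2 difference 0.55 ± 0.35). Khk, the fructose kinase, stood at 0.49 ± 0.34 and Slc2a2, the glucose transporter of hepatocytes, at 0.33 ± 0.32. Klf10, an immediate target of ChREBP, stood at 1.77 ± 1.08, and at 0.24 without GFP replicate 2, where its signal of 53.6 lay under the floor of 119.5. G6pc, the glucose-6-phosphatase, stood at -0.14 ± 0.37 with overlapping groups. None had a limma adjusted p under 0.962.

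Partner and upstream factors were mixed. Of 14 tested, 3 had both lipin arrays above and 2 had both below. Their median was -0.14, and it turned to 0.057 without GFP replicate 1. Hnf4a, a hepatocyte nuclear receptor, read 17791 and 8054 with GFP against 22537 and 23579 with lipin (log2 difference 0.95 ± 0.37), or 0.37 without GFP replicate 2. Usf1, an E-box factor of lipogenic promoters, stood at -1.66 ± 1.16. Leaving out lipin replicate 1, where its signal of 107.7 lay under the floor, gave -0.30, and leaving out lipin replicate 2 gave -3.02. Rxrb, a partner of LXR, stood at 1.66 ± 1.07 and Ppp2ca, a phosphatase catalytic subunit that acts on ChREBP, at 0.050 ± 0.33. Rxrb read 77.4 in GFP replicate 2, and without that array its difference was -0.0041. The limma adjusted p ran from 0.962 to 0.986 in these 4 genes.

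Among other START domain proteins, the lipid carriers related to Stard4, 5 of 10 on the array had both lipin arrays over both controls and 1 had both under. The latter was Cert1, the ceramide transfer protein, at 631 and 1329 with GFP against 52.8 and 24.5 with lipin. Its mean log2 signal was under the filter, so it was not tested. The median log2 difference was 0.55 over the 8 tested genes, which leaves Cert1 out, and 0.45 over all 10. Stard5, a cholesterol binder, read 2577 and 4668 with GFP against 5184 and 7586 with lipin (log2 difference 0.85 ± 0.40), or 0.43 without GFP replicate 1. Stard10, a phospholipid carrier of liver, read 30611 and 28546 with GFP against 43612 and 41853 with lipin (log2 difference 0.53 ± 0.33). Stard7, another phospholipid carrier, stood at 0.36 ± 0.34. Stard3, a late endosomal sterol carrier, was dim, at 148 and 161 with GFP against 1470 and 724 with lipin, with a difference of 2.74 ± 1.38. Both GFP signals were under the filter of 373, so it was tested through the lipin arrays only and its difference supports nothing. The same goes for its part in the median of 0.55. Stard3 is also among the 5, a count over all 10 genes on the array, tested or not. The limma adjusted p was 0.962 for these 4 genes. Stard4 itself overlapped between the groups.

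**Figure D3:**
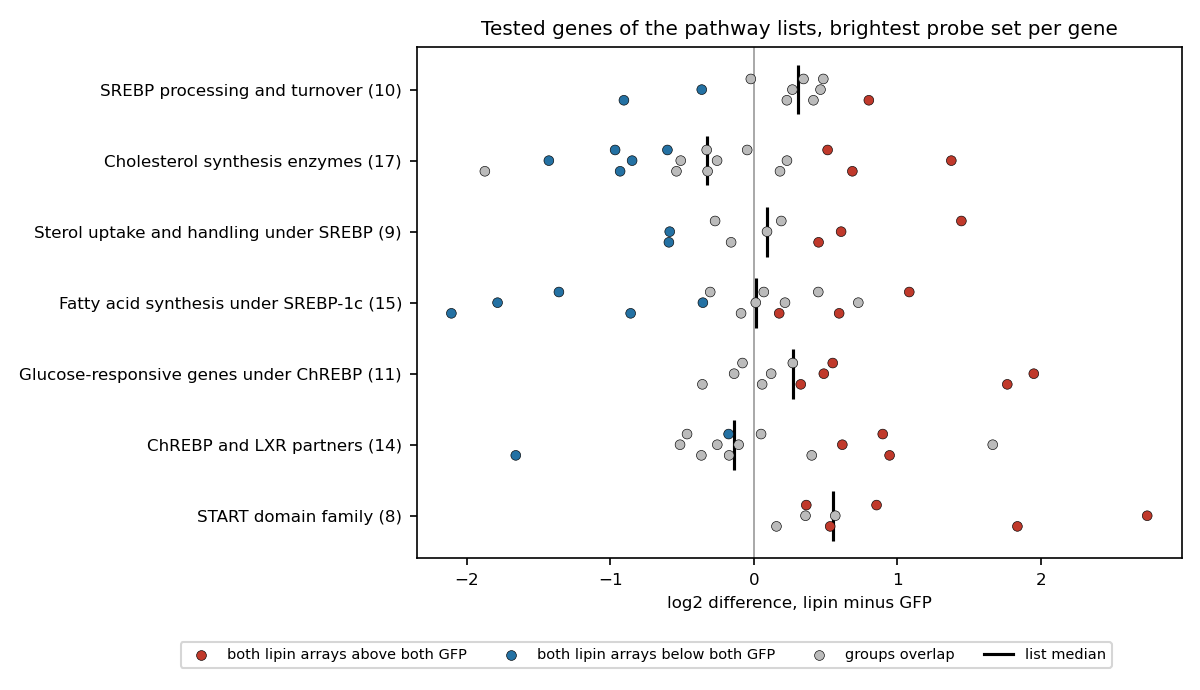
Log2 difference, lipin minus GFP, of each tested gene in 7 pathway lists, with the number of tested genes in brackets. Red points have both lipin arrays above both GFP arrays, blue points both below, grey points overlap, and black lines are list medians, which run from -0.33 for cholesterol synthesis enzymes to 0.55 for the START domain family. Genes under the filter, Cert1 among them, are not drawn.

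The genes most like Srebf1 and Thrsp in their course over the 4 arrays were found among the 84 tested genes of these pathway lists, by the root mean square difference of log2 signals centred on each gene's mean. Closest to Srebf1 were Hnf4a (0.17), Sec24c (0.21) and Fads2 (0.28). Hnf4a and Sec24c also had their lowest value in GFP replicate 2. Closest to the brighter Thrsp probe set were Fads2 (0.12), Ebp (0.20), a sterol isomerase that read 5420 and 5563 with GFP against 8054 and 9690 with lipin, and Fads1 (0.23), another desaturase, at 11593 and 13496 with GFP against 15279 and 23327 with lipin. With 4 arrays this order is a description only.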

How the data were processed

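Each of 4 Affymetrix arrays measured RNA of 1 liver sample, grouped by the sample titles. The authors deposited linear intensity values, 1 MAS5 signal for each probe set, per the submitters' processing notes; the version, scaling target and genome build were not given in the sources used here, and signal over background is not known. The file holds 22690 probe sets, of which 64 controls were left out. Signals were floored at 119.5 (20th percentile), put on the log2 scale and filtered at the 40th percentile of mean log2 signal (a signal of 373), which left 13576 probe sets for a test with limma 3.58.1 in R 4.3.3 (lmFit, eBayes with an intensity trend, two-sided, Benjamini-Hochberg over all tested, threshold 0.05), with 2 residual and 12.7 prior degrees of freedom. On simulated data with 200 of 13576 probe sets changed, in 10 sets, 14.8% of 4-fold and 39.0% of 8-fold changes were recovered, so changes of the size seen here can stay below the threshold. Fold changes are on the floored log2 scale.

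Of 22626 probe sets, 20380 had 1 symbol, 691 several and 1555 none in the platform annotation; 20351 were given current names through their Entrez identifiers in RefSeq (GRCm38.p6). Promoter sequences were matched by symbol for 7 of the 8 members. Named are all member probe sets, Lpin1, and from each pathway list up to 3 genes by smallest p and up to 2 by highest signal. The members and lists were chosen with earlier results of these data known; the named marker genes, Arrdc4 and Cert1 were chosen after their values were seen. Alternatives were median centring, quantile normalization, changed floors or filters, no trend, the replicate number as a block, and leaving out each array. Same-numbered arrays deviated together at a correlation of 0.028.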

Additional observations from a re-analysis of the deposited data

How the results depend on the processing

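Under quantile normalization, median centring, floors at the 10th or 30th percentile, no filter or a filter at the 50th percentile, and eBayes without a trend, 0 probe sets passed and every member probe set kept its direction; at an unadjusted limma p under 0.05 there were 596 with all arrays. Left out in turn, arrays gave counts from 0 to 13 probe sets past the limma threshold, 0 of them members: for lipin 13 (replicate 1 left out) and 3 (replicate 2), for GFP 0 (replicate 1) and 2 (replicate 2). With the replicate block, 52 passed, 34 higher and 18 lower, among them Srebf1 (1.20, adjusted p = 0.0288), Thrsp 1422973_a_at (1.53, adjusted p = 0.00262) and Hmgcs1; the adjusted p of that Thrsp probe set ran from 0.166 to 1.00 over the other alternatives. The numbers do not pair the arrays by their labels, and in that fit the prior degrees of freedom were infinite, so a gene's own spread was not used. They were infinite too in the fits without lipin replicate 1 and without lipin replicate 2, so the same limit holds for these. Among the members and the named pathway genes, direction turned only with an array left out: the range was -1.38 to 0.90 and -1.93 to 0.29 for Srebf2, -0.26 to 0.85 and -0.40 to 0.48 for Stard4, -0.25 to 1.22 for Vcp, -0.41 to 0.096 for Abca1, -0.51 to 0.23 for G6pc, -0.0041 to 3.33 for Rxrb and -0.19 to 0.29 for Ppp2ca. Genes whose groups did not overlap could not turn in this way. The cause of the turns was not tested. With 1 array left in a group, that array is assumed to vary like the others.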
